A study of Mus musculus with 8 samples.

Results

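Splicing factor genes were taken from the mouse expression table as all protein-coding rows whose name starts with Srsf, Hnrnp, Snrp, Sf3a, Sf3b, Prpf or U2af. The rule found 67 genes among 23346 rows, of which 15526 are protein-coding: 20 Hnrnp, 13 Prpf, 12 Snrp, 10 Srsf, 6 Sf3b, 3 Sf3a and 3 U2af genes. Another 2 rows with such a prefix are processed pseudogenes and were left out. RNA came from bone marrow-derived macrophages, which are marrow cells of male mice aged 8 weeks, kept in M-CSF (10 ng/ml) and 10% serum over 7 days. The 3 control libraries are from Ets1 f/f mice, with floxed alleles of the transcription factor gene Ets1. The 3 knockout libraries are from Ets1 f/f * Lyz2-cre mice, in which the Lyz2 promoter drives Cre in myeloid cells. The labels give the controls no Cre, so Cre itself and the loss of Ets1 cannot be told apart, and cells that do not use Lyz2 keep the gene. Ets1 ChIP-seq was done on wild type C57 macrophages polarized to the M1 or the M2 state, and each state has 1 library. These cells too came from mice aged 8 weeks and were kept in M-CSF (10 ng/ml) and 10% serum over 7 days.

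Splicing removes introns from pre-mRNA in the spliceosome, which is built from small nuclear ribonucleoproteins (snRNPs) named U1, U2, U4, U5 and U6. Snrp genes code for the Sm proteins that form a ring around the snRNAs and for proteins particular to U1 or U2. Sf3a and Sf3b subunits anchor U2 at the branch point, and the U2af heterodimer reads the end of the intron. Prpf genes code for a mixed set that includes the U5 scaffold PRP8. SR proteins (Srsf) mostly favour the use of exons they bind, while hnRNPs coat nascent RNA and often oppose it. In macrophages, as in most cells, these genes are widely and strongly expressed. Many of them are known to regulate their own mRNA through exons or introns that make the transcript unstable or keep it in the nucleus. The table counts reads per gene and cannot separate such forms.

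The RNA libraries held between 16897873 and 20259175 reads on genes, and each value is a normalized count, meaning reads divided by 1 size factor per library. Ets1 fell from 3282 ± 389 to 742 ± 90.6 (SD, n = 3 per group), a change of −2.15 on the log2 scale, with an SE of 0.11 and an adjusted p of 3.93e-07 by limma. Defining macrophage genes were abundant in every library, Adgre1 at 59435 to 102634, Csf1r at 35742 to 49028 and Cd68 at 8383 to 9494. Of the 12 genes of that list 2 rose (Adgre1 0.58 and Lyz2 0.56 as log2 fold changes), 3 fell (C1qa −0.83, Cebpb −0.38 and Csf1r −0.34) and 7 did not pass. Markers of other cell types were lower in knockouts. Of 10 B cell markers 7 fell, with a list sum of 4280 to 5035 in controls and 3668 to 3886 in knockouts. All 10 stromal markers fell, from sums of 10742 to 15968 down to 3519 to 4340. Of 12 neutrophil markers 8 fell, from 20273 to 23717 down to 11590 to 12117. Of 8 megakaryocyte markers 7 fell, from 2973 to 4908 down to 1107 to 1282. The remaining lists had 5 of 8 endothelial (sums of 2115 to 2563 in controls and 1739 to 1864 in knockouts), 4 of 7 mast cell (174 to 251 and 37.0 to 45.8), 3 of 7 T and NK cell (374 to 437 and 61.3 to 65.3), 1 of 4 erythroid (24.6 to 27.3 and 7.62 to 15.6) and 1 of 7 dendritic cell markers (275 to 479 and 251 to 305) lower, and in all of these lists 0 rose, by limma, edgeR or DESeq2 and also at an unadjusted p under 0.05. Of 18 proliferation genes 5 fell and 0 rose (1 at an unadjusted p, 0 by edgeR and DESeq2), with sums of 13790 to 17369 in controls and 14668 to 16837 in knockouts. Ncr1, Cpa3, Fcer1a and Hba-a1 were at 0 in all knockouts. The part of these cells in the values below was not tested. In such bulk RNA, fewer cells of a type and less RNA per cell cannot be told apart.

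More splicing factor genes fell than rose in knockouts, the changes were small, and the share called in all was that of protein-coding genes. Of the 67 genes, all of which passed the filter on low values, 13 fell, 5 rose and 49 did not pass at an adjusted p under 0.05 by limma. That is 19.4% lower and 7.5% higher. Among all 20595 tested genes 10.5% were lower and 10.4% higher, 20.9% in all. Among the 14664 tested protein-coding genes 13.2% were lower and 13.8% higher, and their 27.1% called in all is close to the 26.9% of the splicing factor genes. The median log2 fold change of the 67 genes was −0.12, against −0.04 for all tested genes, and single genes ranged from −1.17 (Snrpg) to 0.46 (Hnrnpul1). In 47 of the 67 the fitted change was negative. Groups did not overlap in 31 genes, 21 with all knockouts lower and 10 with all knockouts higher, 46.3% in all. The share was 44.5% of the tested protein-coding genes (21.9% lower and 22.6% higher) and 36.8% of all tested genes (18.5% lower and 18.3% higher).

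**Figure D1:**
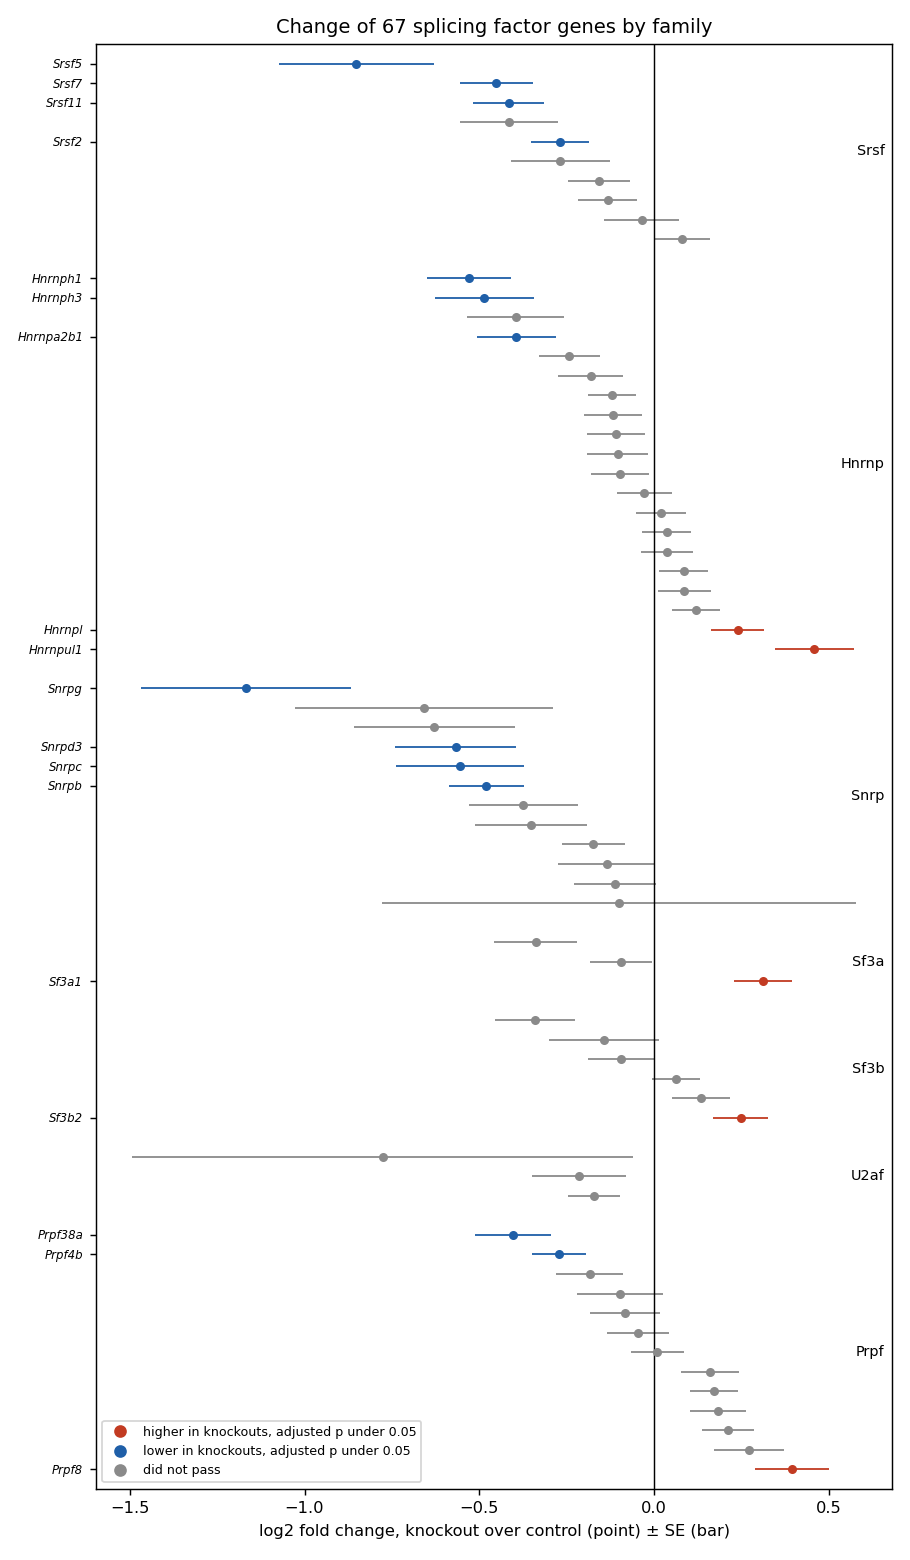
Log2 fold change of each of the 67 splicing factor genes (x axis, knockout over control, point with SE bar from limma), grouped by family on the y axis, with names for the 18 genes that passed the test. Blue and red points passed an adjusted p of 0.05, 13 lower and 5 higher. All 12 Snrp genes lie left of 0 (11 with the length trend removed), whereas Prpf genes lie on both sides.

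These calls depend on single libraries. Without control replicate 2, and also without knockout replicate 2, 0 of the 67 genes were called by limma, while 14 lower and 7 higher, and 17 lower and 5 higher, had an unadjusted p under 0.05. At those settings the adjusted p of the 18 genes ran from 0.0533 to 0.159 and from 0.0518 to 0.148. Without knockout replicate 1 there were 2 lower and 0 higher, without knockout replicate 3 there were 4 lower and 1 higher, and without control replicate 3 there were 7 lower and 3 higher. Without control replicate 1 the counts rose to 25 lower and 8 higher. Calls over all tested genes moved as well, from 4298 to 2029 without control replicate 2 and 2054 without knockout replicate 2. They were 2221 and 2490 without knockout replicates 1 and 3, and 3325 and 5716 without control replicates 3 and 1. No called gene stayed called in more than 3 of these 6 fits. Each of the 18 kept its sign in all of them, which groups without overlap fix in advance. Count tests on all libraries gave 19 lower and 3 higher (edgeR) and 16 lower and 6 higher (DESeq2), with backgrounds of 12% and 9.08% for edgeR and 12.4% and 12.8% for DESeq2. In the authors' deposited table, 22 of the 67 genes have an adjusted p under 0.05, 16 lower and 6 higher in knockouts. The 18 genes called here are among them. Those counts, and the 4174 genes over the whole table, equal the counts of DESeq2 on the same libraries, so they are no separate check.

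Most calls of a rise depend on the scaling, although the 5 genes kept a positive change. Scaled to equal total reads, the median of all tested genes moved from −0.04 to −0.16, and the splicing factor genes moved with it, from −0.12 to −0.25. The gap between both medians was −0.09 in either case. Under that scaling 25 genes were lower and 1 was higher, beside 15.7% and 5.71% of all genes. The 13 falls were all kept there, and Hnrnpul1 was the rise that stayed.

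The order of the libraries within a group was uneven in these genes. Among the controls, replicate 1 was the lowest of the group in 43 of the 67 genes (64.2%) and replicate 3 the highest in 44 (65.7%). Over all tested protein-coding genes those shares were 36.4% and 34.4%. In knockouts replicate 1 was the lowest in 37 of 67 (55.2%), against 36.5% of all. The median SD over the 67 genes was 0.13 on the log2 scale in controls and 0.09 in knockouts, against 0.19 and 0.12 over all tested protein-coding genes and 0.14 and 0.08 over those with a mean of at least 100. The plot of counts by library shows this order in most of the genes that fell.

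**Figure D2:**
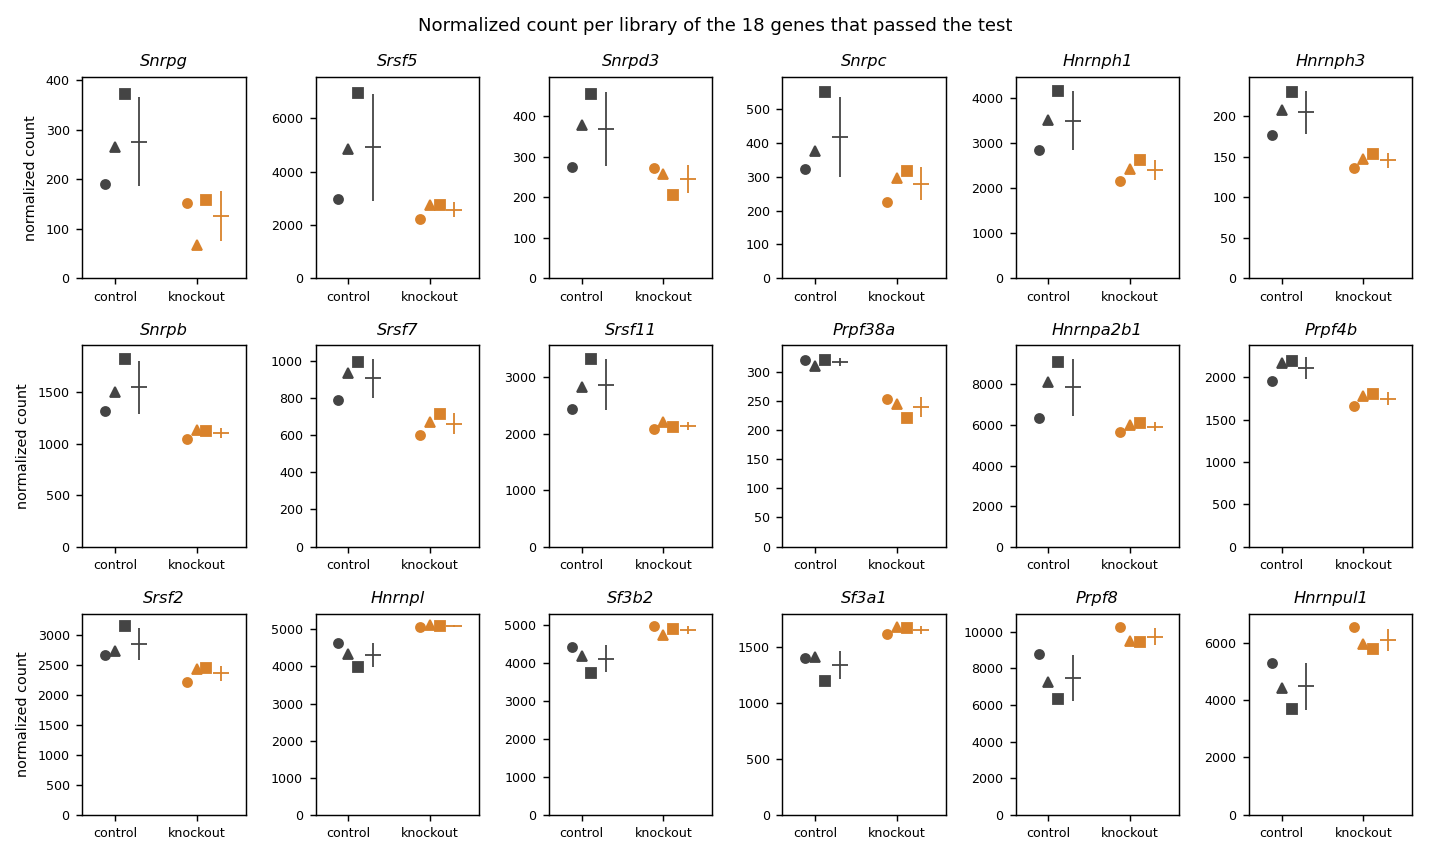
Normalized count (y axis, from 0) in each library of the 18 splicing factor genes that passed the test, ordered from the largest fall (Snrpg) to the largest rise (Hnrnpul1). Circles, triangles and squares are replicates 1, 2 and 3, and the cross beside them is the mean with its SD (n = 3). Groups do not overlap in any of the 18 genes, and the controls spread more widely than the knockouts in Srsf5 and most others.

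Ets1 ChIP summits lay at the promoters of most splicing factor genes in both polarized states. Of the 67 genes, 55 (82.1%) had an M1 summit and 55 an M2 summit within 1 kb of the start site in the table, and 54 (80.6%) had both. Over 14664 tested protein-coding genes the shares were 56.6%, 58.3% and 51.9%. Promoters of abundant genes carried summits more often, and 39 of the 67 genes are in the upper quartile of level. In that quartile 34 of 39 (87.2%) had an M1 summit, against 78.2% of all its genes, and 35 (89.7%) had an M2 summit, against 79.5%. Each state is 1 library, so these shares have no replicate check. All 10 Srsf genes and all 3 U2af genes had summits in both states, as did 17 of 20 Hnrnp (85.0%) and 11 of 13 Prpf genes (84.6%). Of 12 Snrp genes 7 did (58.3%), beside the 51.9% of tested protein-coding genes.

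Snrpb was the gene with a summit in M2 alone, and Sf3b6, a small SF3B subunit at the branch site, the one in M1 alone. The 11 genes with neither were Hnrnpf, Hnrnpl, Hnrnpm, Prpf6, Prpf18, Sf3a3, Sf3b5, Snrpa1, Snrpc, Snrpf and Snrpn. The table's outermost start can lie away from the main promoter. Measured from the RefSeq starts in place of the table's, an alternative chosen after the data were seen, 54 of the 58 genes with a listed RefSeq promoter (93.1%) had both summits, against 56.9% of the 11353 tested protein-coding genes with a listed promoter. Hnrnpf, Hnrnpl, Hnrnpm, Prpf6, Snrpa1 and Snrpc gained summits in both states, whereas Sf3a3, Snrpf and Snrpn had none there either.

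Most of the strongest summits lay at hnRNP genes. By the authors' fold over background at the summit, the highest M1 values were 15.8 at Hnrnpa2b1, 15.7 at Hnrnph3, 14.9 at Hnrnpd, 14.8 at Hnrnpul2, 14.2 at Srsf1 and 13.8 at Hnrnpk. The highest M2 values were 16.1 at Hnrnpul2, 14.8 at Hnrnpk, 14.2 at Hnrnph3, 13.1 at Prpf40b, 12.7 at Hnrnpd and 12.1 at Hnrnpll. Hnrnph3, Hnrnpd, Hnrnpul2 and Hnrnpk stood among the highest in both lists. The weakest summits were those of the Sm gene Snrpd1, at 4.12 in M1 and 3.54 in M2. The median fold was 9.83 in M1 and 9.33 in M2, against 8.04 and 7.87 over all tested protein-coding genes with a summit. The summits lay a median of −35 bp (M1) and 5 bp (M2) from the start, with 14 and 17 of 55 within 100 bp. Over all such genes 42.9% and 41.6% lay that close, more than the 25.5% and 30.9% seen here. In 30 of the 67 genes (44.8%) another gene starts on the opposite strand within 1 kb, against 20.2% of all, so a summit there can lie near both starts. Hnrnpa2b1 and its neighbour Cbx3 are such a pair.

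**Figure D3:**
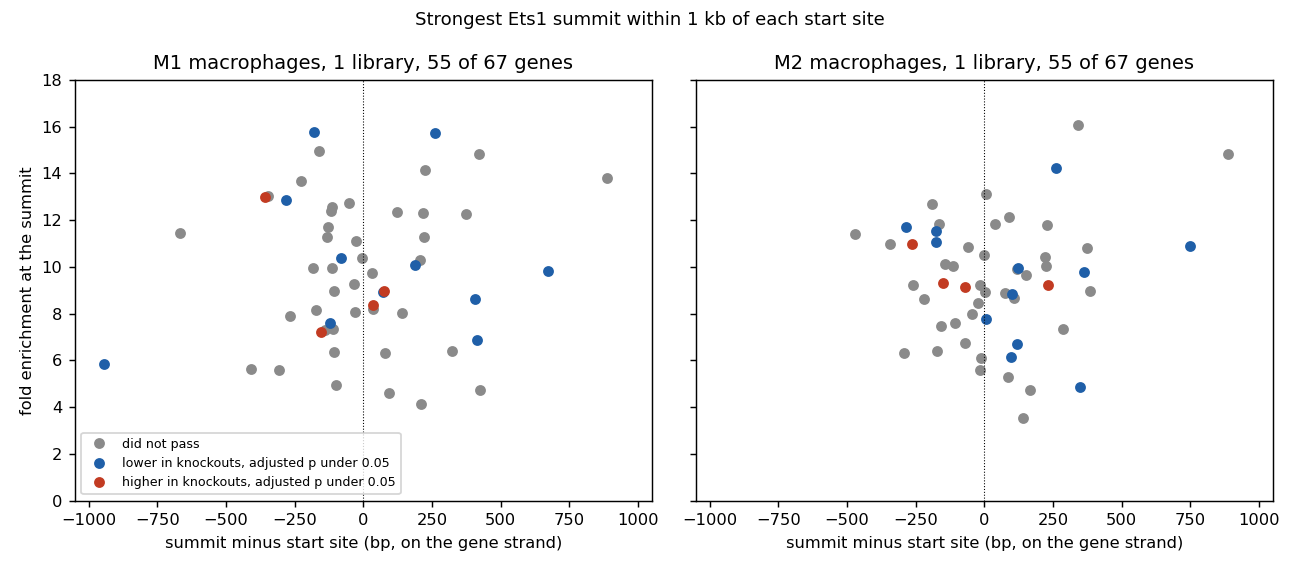
Strongest Ets1 summit within 1 kb of each start site, by its distance from the start in bp on the gene strand (x axis) and its fold enrichment (y axis), in M1 (left) and M2 macrophages (right), 1 library each and 55 of 67 genes in both. Blue and red genes, lower and higher in knockouts, lie among the grey genes that did not pass.

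Promoter sequence is shown for genes that fell and genes that rose, so that the ETS-type letters can be read beside the summits. ETS proteins bind DNA around the core GGAA, which was found on either strand in 96.0% of 32851 RefSeq promoters of 300 bases (250 before to 50 after the start) and in 55 of the 58 promoters of splicing factor genes. The longer CCGGAAG, which contains that core, was searched on both strands. It was found in 19 of the 58 promoters (32.8%), in 8.9% of all promoters and in 16.8% of the promoters of tested protein-coding genes, 1 promoter per gene. Letters were read at the RefSeq start nearest the table's start, whereas summits were counted from the table's start. Of the 48 promoters of genes with summits in both states 14 held CCGGAAG (29.2%), against 22.7% of 6117 such promoters overall. Of the 9 promoters of genes with a summit in neither state 4 held it (44.4%), against 8% of 3988 overall. Those 4 belong to Hnrnpf, Prpf6, Sf3a3 and Snrpc. Of the same 9 genes, Hnrnpf, Hnrnpl, Hnrnpm, Prpf6, Snrpa1 and Snrpc had both summits at a RefSeq start. The 44.4% and the 8% are thus no shares for promoters without summits. The sequences are the 250 bases before the RefSeq start on GRCm38.p6 (mm10), read on the gene strand, with CCGGAAG or its complement in capitals. Srsf5 (chr12:80945249-80945498, plus strand) has 2 matches, the first base of each at −90 and −23. Srsf11 (chr3:158036607-158036856, minus strand) has 1 at −104, and both genes fell. Sf3a1 (chr11:4160104-4160353, plus strand) has 1 at −7 and Sf3b2 (chr19:5295456-5295705, minus strand) 1 at −13, and both genes rose. Hnrnpa2b1 (chr6:51469895-51470144, minus strand), which fell and had the highest M1 enrichment, has 0.
Srsf5: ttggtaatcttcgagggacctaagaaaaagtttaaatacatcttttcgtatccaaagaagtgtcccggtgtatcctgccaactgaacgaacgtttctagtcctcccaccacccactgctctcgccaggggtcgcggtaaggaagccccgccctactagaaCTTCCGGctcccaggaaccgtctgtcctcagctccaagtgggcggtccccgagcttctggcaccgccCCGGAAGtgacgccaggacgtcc
Srsf11: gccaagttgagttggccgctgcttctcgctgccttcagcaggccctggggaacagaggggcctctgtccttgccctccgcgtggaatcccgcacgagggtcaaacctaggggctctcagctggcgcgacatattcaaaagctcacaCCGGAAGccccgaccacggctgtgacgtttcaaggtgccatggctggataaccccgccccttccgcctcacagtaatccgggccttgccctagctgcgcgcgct
Sf3a1: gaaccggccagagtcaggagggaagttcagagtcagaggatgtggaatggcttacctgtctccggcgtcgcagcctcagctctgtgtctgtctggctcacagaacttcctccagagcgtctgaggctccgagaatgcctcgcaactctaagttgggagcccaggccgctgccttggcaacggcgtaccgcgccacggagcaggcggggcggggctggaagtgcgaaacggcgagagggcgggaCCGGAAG
Sf3b2: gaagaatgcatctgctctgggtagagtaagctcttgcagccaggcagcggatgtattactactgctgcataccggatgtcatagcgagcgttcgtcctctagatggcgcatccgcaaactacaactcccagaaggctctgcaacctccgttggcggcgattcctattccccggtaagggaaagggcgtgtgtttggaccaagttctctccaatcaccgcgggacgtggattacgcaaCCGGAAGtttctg
Hnrnpa2b1: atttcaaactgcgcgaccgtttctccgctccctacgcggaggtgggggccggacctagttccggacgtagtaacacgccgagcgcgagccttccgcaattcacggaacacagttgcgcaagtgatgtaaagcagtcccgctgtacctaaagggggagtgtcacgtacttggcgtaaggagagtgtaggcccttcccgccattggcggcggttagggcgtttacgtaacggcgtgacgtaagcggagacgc

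Measured from these RefSeq starts, the summits lay at 412 (M1) and 369 bp (M2) in Srsf5, downstream of the printed bases, and at 39 and −28 bp in Srsf11. They lay at 30 and 227 bp in Sf3a1, at 76 and −70 bp in Sf3b2 and at −179 and −177 bp in Hnrnpa2b1. Only the last pair falls inside the printed stretch in both states. A match is a description of letters, not a binding site.

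Calls were also counted by summit. Of the 54 genes with summits in both states, 11 (20.4%) fell and 4 (7.4%) rose, with a median log2 fold change of −0.12. Over the 7615 tested protein-coding genes with both summits, 8.7% fell and 18% rose, with a median of 0.03. Of the 11 splicing factor genes with a summit in neither state, 1 fell and 1 rose (9.1% each), with a median of −0.11. Over the 5430 tested protein-coding genes with neither, 18.7% fell and 8.3% rose, with a median of −0.23. The ChIP libraries are polarized and the RNA libraries are not, and these differences were not tested.

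SR proteins fell or did not pass. Of 10 Srsf genes 4 fell (Srsf2, Srsf5, Srsf7 and Srsf11) and 0 rose by limma. That is 40% called, all lower, beside 13.2% lower and 13.8% higher of the tested protein-coding genes. With edgeR and with DESeq2 5 fell and 0 rose, and 0 were higher at an unadjusted p under 0.05. The median of the 10 log2 fold changes was −0.27. After scaling to total reads it was −0.40, and 6 fell. Srsf5, an SR protein that moves between nucleus and cytoplasm, had normalized counts of 2958, 4840 and 6951 in control replicates 1 to 3 and of 2239, 2742 and 2757 in the knockouts. The controls covered more than a doubling of the level by themselves, and control replicate 1 lay just above the knockouts. The means were 4917 ± 1998 and 2579 ± 295 (SD, n = 3), and the log2 fold change was −0.85 with an SE of 0.22 and an adjusted p of 0.0169 by limma.

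Srsf7, related to Srsf3 and active in export of mRNA, was at 791, 937 and 995 in controls and at 601, 673 and 713 in knockouts. Expressed as a log2 fold change the fall was −0.45, with an SE of 0.10 and an adjusted p of 0.00960 by limma. Srsf11, a larger SR-related protein, was at 2440, 2832 and 3330 against 2074, 2214 and 2110, a log2 fold change of −0.42 (SE 0.10). In both genes every control lay above every knockout. Srsf2, which stays in nuclear speckles, was at 2671, 2744 and 3157 in controls and at 2225, 2429 and 2449 in knockouts, with a log2 fold change of −0.27 (SE 0.08). Srsf9 had a larger change of −0.42 but wider spread, 758 to 1186 in controls, and did not pass (adjusted p = 0.0532 by limma), but was called lower with edgeR (0.0273), DESeq2 (0.0273) and total-read scaling (0.0222). Srsf10 (0.08) and Srsf4 (−0.04) were nearest to 0, with 95% intervals of −0.09 to 0.26 and −0.27 to 0.20.

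Among levels per kb of gene length, Srsf5 was the highest SR gene at 1233 normalized counts per kb in controls, followed by Srsf2 at 966. Srsf4 was the lowest at 91.9. The length in the table may sum exons of all isoforms, which lowers the value of genes with many.

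Most hnRNP genes did not pass. Of 20 Hnrnp genes 3 fell (15%), 2 rose (10%) and 15 did not pass, shares near the 13.2% and 13.8% of all tested protein-coding genes, with a median log2 fold change of −0.10. After scaling to total reads 7 fell and 1 rose. Hnrnph1 and Hnrnph3, which code for related proteins that bind runs of G, both fell. Hnrnph1 was at 2849, 3515 and 4157 in controls and at 2168, 2429 and 2632 in knockouts, a log2 fold change of −0.53 (SE 0.12, adjusted p = 0.00889 by limma). Hnrnph3, a rarer transcript, was at 177, 207 and 230 against 136, 147 and 153, a log2 fold change of −0.49 (SE 0.14). Every knockout lay below every control in both. The third H gene, Hnrnph2 on the X chromosome, had a log2 fold change of 0.04 with a 95% interval of −0.11 to 0.19. Hnrnpf, their close relative, was at −0.11 and did not pass.

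Hnrnpa2b1, which binds introns and sorts RNA, was at 6340, 8127 and 9128 in controls and at 5669, 6000 and 6096 in knockouts. That is a log2 fold change of −0.39 with an SE of 0.11 and an adjusted p of 0.0262 by limma. Control replicate 1 again lay closest to the knockouts. Hnrnpa1, its relative, had 3441 ± 113 and 3741 ± 57.9 and did not pass, although its groups did not overlap. Reads of Hnrnpa1 can be shared with processed pseudogenes, which this gene and the snRNP genes are known to have, so such levels are uncertain.

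Hnrnpul1 showed the largest rise of the 67 genes. It codes for a protein related to hnRNP U and linked to DNA repair. It was at 5310, 4415 and 3702 in controls and at 6540, 5967 and 5777 in knockouts, a log2 fold change of 0.46 (SE 0.11, adjusted p = 0.0126 by limma). Here control replicate 3 was the lowest and replicate 1 the nearest to the knockouts. Hnrnpl, a protein that binds CA-rich RNA and acts on Ptprc in lymphocytes, was at 4635, 4337 and 3973 against 5054, 5107 and 5090, a log2 fold change of 0.24 (SE 0.08, adjusted p = 0.0411). Over its alternatives Hnrnpl was lost with edgeR (adjusted p = 0.0633), voom (0.0509), total-read scaling (0.276) and with the length trend removed (0.0573). Its paralog Hnrnpll did not pass in the main test, at −0.18. Hnrnpab was the highest hnRNP gene per length, at 1636 normalized counts per kb in controls, and Hnrnpr the lowest at 53.7.

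All 12 Snrp genes had a negative log2 fold change, with a median of −0.43, and 11 did without control replicate 2, control replicate 3 or knockout replicate 2. One of the 12 is Snrpn, whose counts are too low to give a direction (95% interval −1.57 to 1.37). Of them 4 fell, 8 did not pass and 0 rose (0 also by edgeR, DESeq2 and at an unadjusted p under 0.05), and 7 had no overlap between groups. That is 33.3% called, all lower, beside 13.2% lower and 13.8% higher of the tested protein-coding genes. The share without overlap was 58.3%, all with knockouts lower, beside 21.9% lower and 22.6% higher of those genes. With total-read scaling 6 fell, and with voom 2. With the trend on gene length removed, described below, 11 were negative and the median was −0.31. The 7 Sm ring genes Snrpb, Snrpd1, Snrpd2, Snrpd3, Snrpe, Snrpf and Snrpg had a median of −0.57, and 3 of them fell. Without control replicate 3 the median of the 12 was −0.17, and without control replicate 1 it was −0.60.

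Snrpg, the smallest ring subunit, was at 191, 266 and 372 in controls and at 152, 68.1 and 159 in knockouts. It had the largest change of the 67 genes, a log2 fold change of −1.17 (SE 0.30, adjusted p = 0.0160 by limma), and the lowest value was that of knockout replicate 2. Snrpb, which codes for SmB and SmB', was at 1320, 1505 and 1826 against 1047, 1137 and 1123, a log2 fold change of −0.48 (SE 0.11, adjusted p = 0.00793). Its knockouts lay close together and below all controls. Snrpd3 was at 274, 378 and 456 against 272, 259 and 206, with a log2 fold change of −0.57 (SE 0.17), and was not called with voom (adjusted p = 0.0503). Control replicate 1 and knockout replicate 1 of Snrpd3 were nearly equal.

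Snrpc, the U1 protein that steadies pairing with the start of the intron, was at 323, 377 and 550 in controls and at 224, 297 and 316 in knockouts. Its log2 fold change of −0.56 (SE 0.18) had an adjusted p of 0.0488 by limma, which became 0.0620 with voom, 0.0538 with a pseudocount of 0.5 and 0.0528 with a filter at a mean of 10. The remaining ring genes did not pass. Snrpe (−0.66) was at 81.9, 131 and 323 in controls, and its highest library was control replicate 3. Snrpf (−0.63) was at 73.1, 107 and 138 against 71.8, 64.2 and 62.6, and Snrpd1 and Snrpd2 were at −0.37 and −0.35. The U2 and U1 proteins Snrpa1 and Snrpa were at −0.14 and −0.11 and did not pass. Snrpn, known from neurons and imprinted, was at 0.881 to 6.88 in all libraries and is the lowest of the family at 1.63 per kb, while Snrpb is the highest at 785.

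In the U2 branch point complexes few genes passed. Of 9 Sf3a and Sf3b genes 2 rose, 0 fell and 7 did not pass by limma. Among tested protein-coding genes 13.8% rose and 13.2% fell, against 22.2% and 0.0% of the 9. At an unadjusted p under 0.05, 2 of the 9 were lower, as with edgeR, and DESeq2 gave 1 lower. Sf3a1, an SF3A subunit that also contacts U1, was at 1405, 1410 and 1192 in controls and at 1615, 1675 and 1671 in knockouts, a log2 fold change of 0.31 (SE 0.08, adjusted p = 0.0203 by limma). Sf3b2, a large SF3B subunit, was at 4428, 4178 and 3723 against 4970, 4744 and 4889, a log2 fold change of 0.25 (SE 0.08, adjusted p = 0.0429). Control replicate 3 was the lowest library of both genes. Scaled to total reads, Sf3a1 (adjusted p = 0.118) and Sf3b2 (0.261) were not called, and Sf3b2 was also lost with edgeR (0.0614) and voom (0.0523). Sf3a2 (−0.34) and the small subunit gene Sf3b5 (−0.34, adjusted p = 0.0517) were negative and did not pass. Sf3b1, the subunit that grips the branch point, was at 6887 ± 208 and 7189 ± 153 with a 95% interval of −0.09 to 0.21. Per length, Sf3b2 was the highest of the Sf3b genes at 1272 and Sf3b5 the lowest at 162. The 3 Sf3a genes lay between 217 (Sf3a1) and 239 (Sf3a2) normalized counts per kb.

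The 3 U2af genes did not pass by limma, edgeR or DESeq2, and 1 was lower at an unadjusted p under 0.05. U2af2, the large subunit that reads the pyrimidine tract, had 2512 ± 161 and 2228 ± 61.4, a log2 fold change of −0.17, and its groups did not overlap. It was called after scaling to total reads (adjusted p = 0.0165). U2af1, the small subunit, was at −0.22 with a 95% interval of −0.51 to 0.08. Its relative U2af1l4 was at 0 in 3 libraries and at 2.64 at most. Per length U2af2 was the highest of the 3 at 611 and U2af1l4 the lowest at 0.910.

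Prpf genes, which share a name rather than a complex, had 1 rise, 2 falls and 10 that did not pass. Their 7.7% higher and 15.4% lower stand beside 13.8% and 13.2% of tested protein-coding genes. The median log2 fold change of the Prpf genes was 0.01. It turned negative with edgeR and voom (−0.03 each), with the length trend removed (−0.13) and after scaling to total reads (−0.12). Prpf8, the U5 scaffold at the catalytic core, was at 8792, 7271 and 6323 in controls and at 10269, 9502 and 9420 in knockouts. That is a log2 fold change of 0.40 with an SE of 0.11, and the adjusted p of 0.0197 by limma became 0.0573 after total-read scaling. All knockouts lay above the highest control, which was replicate 1.

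Prpf38a, needed to activate the assembled spliceosome, was at 322, 310 and 321 in controls and at 254, 245 and 221 in knockouts. Its controls lay close together (SD 6.80), and the log2 fold change was −0.40 with an SE of 0.11 and an adjusted p of 0.0203 by limma. Prpf4b, a kinase of the tri-snRNP, was at 1961, 2174 and 2187 against 1657, 1777 and 1801, a log2 fold change of −0.27 (SE 0.08). Of those that did not pass, Prpf38b, Prpf18 and Prpf31 had all knockouts above all controls, with log2 fold changes of 0.16 to 0.18. Prpf8 was the highest per length at 1000.1 normalized counts per kb and Prpf40b the lowest at 58.8.

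Change and gene length moved together, in these genes and in the rest of the table. By length in the table, the 8 splicing factor genes of up to 2 kb had a median log2 fold change of −0.55, the 22 of 2 to 4 kb −0.13, the 17 of 4 to 6 kb −0.10 and the 20 longer ones −0.02. Over all tested protein-coding genes the medians of the same bins were −0.28, −0.10, 0.00 and 0.11. The first and the third bin of splicing factor genes hold under 20 genes. Across the 67 genes Pearson's r between log2 length and log2 fold change was 0.47 (Spearman 0.44), and 0.15 (Spearman 0.23) across 14664 genes, all from the same 6 libraries. The controls differed with length as well. Control replicate 3 minus replicate 1 had a median log2 difference of 0.29 over protein-coding genes of up to 2 kb and of −0.23 over those longer than 6 kb. In splicing factor genes it was 0.62 and 0.07.

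With each library's trend on length removed, an alternative chosen after the data were seen, 18 of the 67 genes were lower and 4 higher, beside 11.4% and 10.2% of all tested genes. The median was −0.15, and 17 of the 18 calls were kept, Hnrnpl being the exception. Hnrnpdl, Hnrnpll, Hnrnpm, Hnrnpr and Sf3b5 were added as lower. What the length trend stems from was not tested.

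**Figure D4:**
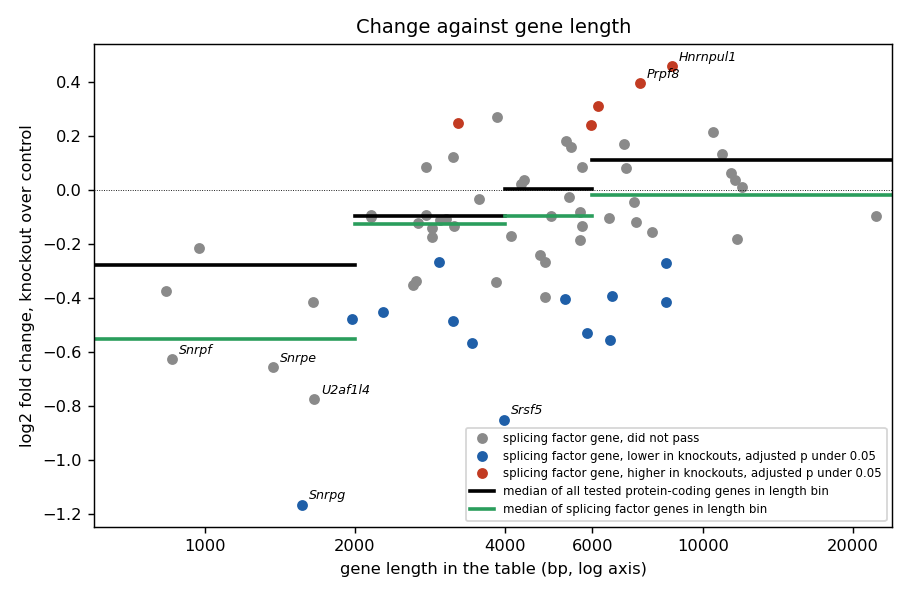
Log2 fold change (y axis, knockout over control) of the 67 splicing factor genes against gene length in bp (x axis, log scale), coloured by call. Black and green lines are the medians of all tested protein-coding genes and of the splicing factor genes in 4 length bins. The green line lies below the black one in each bin, −0.55 against −0.28 up to 2 kb and −0.02 against 0.11 over 6 kb.

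Other genes of the splicing machinery were read from 8 lists with 155 names, 152 of them tested. Of these 14 rose (9.2%), 19 fell (12.5%) and 119 did not pass, in all a share of 21.7% beside 27.1% of tested protein-coding genes and 20.9% of all tested genes, with a median log2 fold change of −0.06. The counts of single lists below stand beside 13.2% lower and 13.8% higher among all tested protein-coding genes. Of 21 tested genes for kinases of SR proteins and SR-like factors, 6 fell and 4 rose. Clk1, Clk2 and Clk4, kinases of SR proteins in the nucleus, had log2 fold changes of −0.47, −0.55 and −0.59. Rsrp1, an arginine and serine rich protein, fell in mean from 9526 to 4371 (log2 −1.03, SE 0.24). Its controls were at 5481, 9267 and 13832, so that it shared with Srsf5 a low control replicate 1. Pnisr fell (−0.42), and Tnpo3, the importer of SR proteins, rose (0.44).

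Of the 22 other snRNP proteins tested, 2 rose and 2 fell. Snrnp70, the U1 protein with an SR-like tail, went from 3102 to 2167 (−0.51, SE 0.11), and Phf5a, a small SF3B subunit, from 338 to 204 (−0.71, SE 0.16). Snrnp200, the U5 helicase that partners PRP8, went from 3920 to 5377 (0.48, SE 0.12), and the branch point protein gene Sf1 from 4520 to 5422 (0.26). Snrnp200 moved in the direction of Prpf8 and Snrnp70 in that of Snrpc. Phf5a moved against Sf3b2 of its own complex, and Snrpa, also of U1, did not pass. Among 27 catalytic and NTC genes, the helicase genes Dhx8 (0.42) and Dhx38 (0.31), Cwc25 (0.33) and Srrm2 (0.40) rose, and Bud31 (−0.44) fell.

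Of 3 smaller lists, some genes fell and 0 rose by limma, edgeR or DESeq2, beside 13.2% lower and 13.8% higher of tested protein-coding genes by limma. Those lower by limma were Rnpc3 (−0.67) and Zmat5 (−0.90) of 10 minor spliceosome genes and Lsm1 (−0.60) and Lsm4 (−0.48) of 10 LSm genes. Of 11 exon junction complex genes Rbm8a (−0.42) and Upf3b (−0.34) fell, and Upf3b was lost with DESeq2. Of 17 genes for snRNP assembly and import 0 rose and 0 fell by limma or DESeq2, edgeR called 1 lower, and 4 lower and 2 higher had an unadjusted p under 0.05 by limma. Among 34 other splicing regulators 4 rose and 4 fell. Rbfox2, which binds GCAUG, went from 323 to 144 (−1.15, SE 0.15), the strongest fall of that list, and Ewsr1 was at −0.44. Ptbp3, a pyrimidine tract binder of blood cells, went from 13390 to 22321 (0.75, SE 0.11), Mbnl1 from 16293 to 22689 (0.48), Mbnl2 was at 0.28 and Qk at 0.31. After scaling to total reads the rises of Sf1, Cwc25, Dhx38, Srrm2, Mbnl2 and Qk did not pass. Lsm4, Bud31, Mbnl2 and Qk did not pass with the length trend removed.

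**Figure D5:**
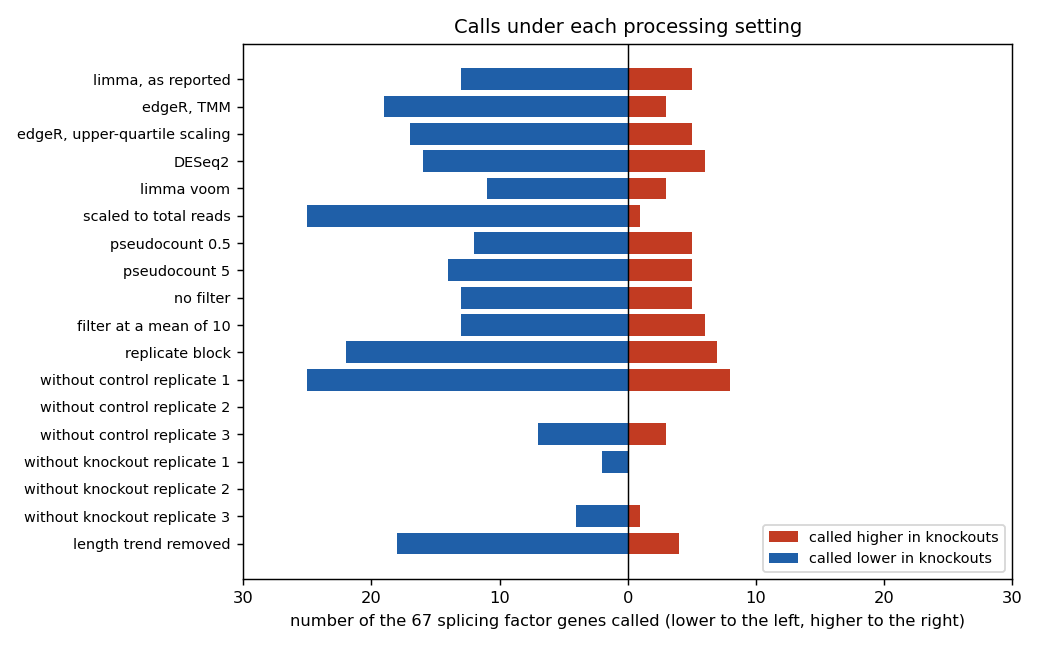
Number of the 67 splicing factor genes called lower (bars to the left) and higher (bars to the right) in knockouts, by processing setting on the y axis. Settings that keep all libraries give 11 to 25 lower and 1 to 7 higher. Leaving out control replicate 2 or knockout replicate 2 gives 0, where calls over all tested genes drop from 4298 to 2029 and 2054.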

How the data were processed

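The authors deposited a gene table of normalized counts (a signal: reads divided by 1 size factor per library), with group means and their own log2 fold change and p-value, raw and adjusted. Whole reads were recovered for 100.0% of values, to within 0.001 of a whole number. The deposited peak lists give per peak a score, a fold ratio over background, and −log10 p and q, on mm10. Per the submitters' processing notes, HISAT2 2.1.0, Bowtie2 2.2.3 and HTSeq 0.6.0 served the RNA, and BWA and MACS2 are among the tools for ChIP; roles, strand setting and peak control are not stated there. Names stored as dates (25) were restored from gene identifiers.

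Knockout and control were compared with limma 3.58.1 (trend, R 4.3.3) on log2(value + 1), so fold changes of low genes are understated. The test took genes whose mean reached 1 in controls or knockouts, with Benjamini-Hochberg adjustment over all of them and a threshold of 0.05. The alternatives were edgeR 4.0.16, DESeq2 1.42.0 and voom on recovered reads, other scalings, pseudocounts, filters, a replicate block and each library left out. The trend on length was a lowess per library (span 0.3). Labels do not say whether replicates are separate animals, so the spread behind each p-value is that of these libraries and could be technical. The genes and lists were chosen with earlier results of these data known. Named genes are those that passed, the extremes per length and per summit in each family or state, those without summits, and up to 6 called genes of each other list. Another gene overlaps 27 of the 67 genes, 7 of them called, and reads there may be mixed.

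Summits count when within 1 kb of the start of the strand given in the table, and the strongest by fold is reported. Promoter sequences are RefSeq's, matched by symbol for 58 of 67 genes.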

Additional observations from a re-analysis of the deposited data

How the results depend on the processing

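Of the 18 called genes, 12 (11 lower, 1 higher) were called under all 11 settings that keep every library. All 18 kept their sign in all 18 fits. Where 1 library was left out that was fixed in advance, as their groups do not overlap. Counts of genes higher moved from 5 to 3 with edgeR, 3 with voom and 1 with scaling to total reads. Counts lower moved from 13 to 25 with total-read scaling, and the median from −0.12 to −0.25. With the replicate number as a block, 22 were lower and 7 higher, and 5374 of all genes were called in place of 4298. Same-numbered libraries deviated together with r of only 0.02, 0.02 and 0.03, although each library correlated best with its own number. In the 67 genes replicate 1 was most often the lowest of its group, in controls (64.2%) and in knockouts (55.2%). Whether the numbers mark a pairing was not tested, and the main test assumed none. Leaving out 1 library gave 0 to 8 genes higher, 0 to 25 lower, medians of −0.20 to −0.08 (−0.1974 and −0.0775) and 2029 to 5716 calls over all genes. Summit counts kept within 1.5 times under the other windows, a −log10 q of at least 10, peaks covering the start and RefSeq starts; their lowest values were 41 (M1), 46 (M2) and 40 (both). Genes under 10 normalized counts (Snrpn, U2af1l4) allow no statement on change.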
